A study of Canis lupus familiaris with 18 samples.

Results

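The genes described here are those of the neutrophil's granules and of calprotectin: S100A8, S100A9 and S100A12, the granule proteins LTF and CAMP, and the granule enzymes CTSG, MPO and ELANE. They were taken as every probe set that the array's annotation gives to exactly 1 of these 8 symbols. This found 9 probe sets for 7 of the 8 genes, among 42924 probe sets other than controls. S100A12 was not matched to a probe set and was not analysed here. LTF and CAMP have 2 probe sets each, and the other 5 genes have 1.

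The study profiled 18 primary osteosarcomas of dogs (Canis lupus familiaris), a malignant bone tumour, on a 1-colour Affymetrix array with 1 array per tumour. The tumours were labelled by the serum concentration of alkaline phosphatase (ALP), an enzyme that bone-forming cells release: 9 with normal ALP and 9 with increased ALP. All tumours were frozen at surgery, biopsy or necropsy and handled alike, the labels name no treatment, age or breed, and they do not say which procedure gave which tumour. A tumour is named here by its group and the number in its label. Averaged over the study, the tissue carried bone matrix genes, with a mean of 14.17 for COL1A1. Of 11 listed osteoblast genes, 10 passed the filter on low signals. Single tumours differed widely: IBSP ran from 4.85 to 14.21 and ALPL from 6.50 to 13.57.

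Calprotectin is the complex of S100A8 and S100A9. It is abundant in the cytosol of neutrophils, is also made by monocytes and by stressed epithelium, and is released in inflammation, where it binds metal ions and signals through the receptors TLR4 and RAGE. The granule proteins are made while neutrophils mature in the marrow: MPO, ELANE and CTSG fill the azurophil granules at the promyelocyte stage, and LTF and CAMP fill the specific granules later. A circulating neutrophil therefore keeps much of the granule protein but little of its messenger RNA, while it still holds S100A8 and S100A9 messenger RNA. In whole tissue, fewer cells of a type and less RNA per cell cannot be told apart.

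Levels are given as log2 of the deposited signal plus 16, so 1 unit is about a doubling of the signal where it is high and more than a doubling where it is low, and a level of 1 probe set cannot be set against that of another. The arrays were alike in scale, with medians of the deposited values between 6.25 and 6.31 and correlations between arrays of 0.929 to 0.982. Increased ALP tumours 3 and 6 stood apart in the bacterial control transcripts, added in fixed amounts: their mean over 7 probe sets was 11.43 and 11.01, against 9.55 to 10.47 in the other 16. The ALP difference of each gene is given with and without these tumours. A second measure concerns RNA quality: the 3' minus middle difference of the actin control probe sets, which grows as transcripts shorten from the 5' end. It averaged 0.91 ± 0.09 (SD, n = 9) in normal ALP tumours and 1.25 ± 0.26 (SD, n = 9) in increased ALP tumours, and all 9 increased ALP tumours lay above the normal mean (difference 0.34, exact two-sided permutation p = 0.00107, 0.00214 after Benjamini-Hochberg adjustment over 4 such measures). The same difference for GAPDH averaged 0.45 ± 0.12 and 0.53 ± 0.18 (exact permutation p = 0.272).

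S100A8 and S100A9 divided the tumours into 5 with high levels and 13 with lower ones, and the same 5 tumours were high for both genes. They were increased ALP tumours 1, 2, 3 and 6 and normal ALP tumour 7. S100A8, the smaller calprotectin subunit, reached 11.20 in increased ALP tumour 1, 11.71 in tumour 2, 11.56 in tumour 3 and 12.23 in tumour 6, and 11.21 in normal ALP tumour 7. No other tumour passed 9.47, the level of increased ALP tumour 9, so 1.73 separated the 2 sets. The lowest level was 6.94, in normal ALP tumour 3, and the deposited signals spanned 44.8-fold.

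S100A9, the larger subunit, showed the wider range. Its levels were 10.49, 11.63, 10.22 and 11.94 in increased ALP tumours 1, 2, 3 and 6, and 10.54 in normal ALP tumour 7. The remaining 13 lay between 6.14 and 8.28, and the gap was 1.95. The deposited signals spanned 71.8-fold. The SD over 18 tumours was 1.66 for S100A8 and 1.90 for S100A9, which ranked at the 99.3 and 99.6 percentiles of all tested probe sets, whose median SD was 0.36. On the RefSeq assembly UU_Cfam_GSD_1.0, S100A8, S100A12 and S100A9 lie next to each other in that order.

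**Figure D1:**
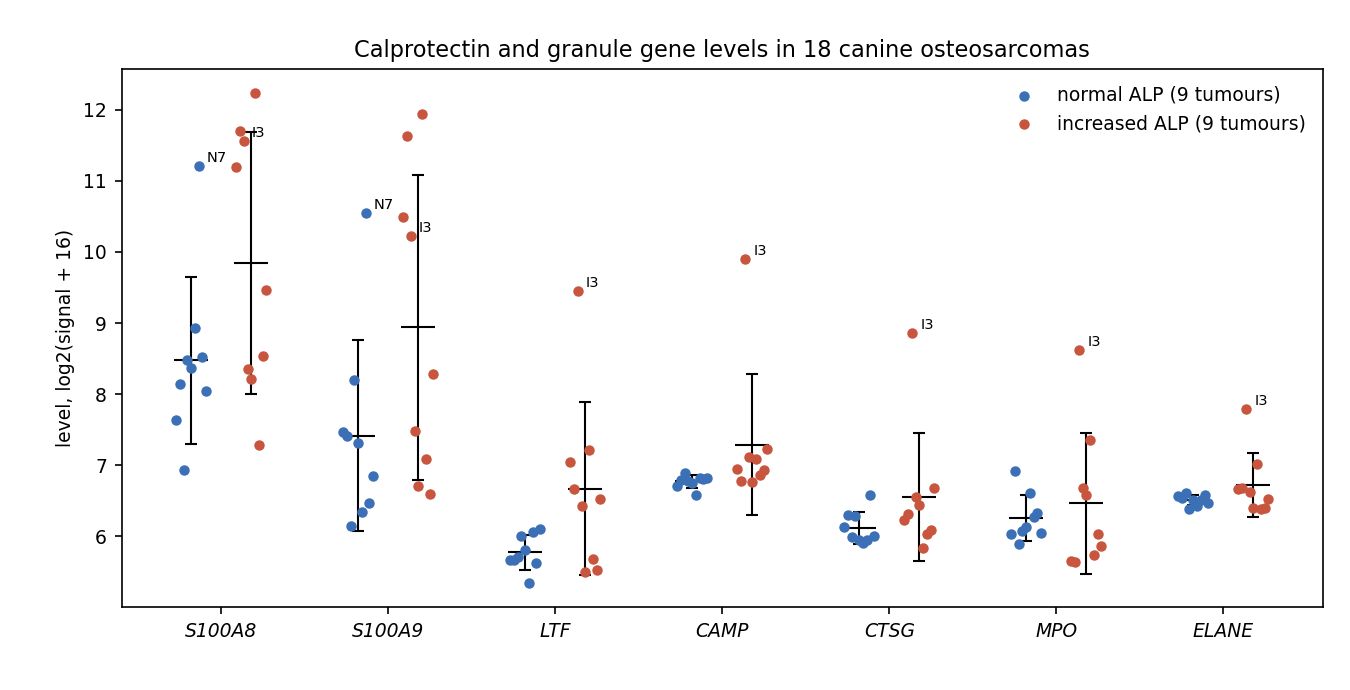
Level of each gene (log2 of signal + 16, vertical axis) in the 9 normal ALP and 9 increased ALP tumours, with 1 point per tumour, bars for the group means and the brighter probe set for LTF and CAMP. S100A8 and S100A9 are high in 4 increased ALP tumours and 1 normal ALP tumour, and each granule gene is highest in increased ALP tumour 3.

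Among the 13 other tumours, S100A8 and S100A9 were not shown to vary together: Pearson's r was 0.372 (permutation p = 0.211, adjusted p = 0.491 over 15 relations) and Spearman's rho was 0.126 (permutation p = 0.680, adjusted p = 0.951). Leaving out the 2 tumours farthest from the median of S100A8 gave r = -0.285. No correlation over all 18 tumours is given between these genes, or of them with the granule genes or the quality measures, because it would mainly measure the gap between the sets. The split into 5 and 13 was made after seeing these values, so the sets describe the tumours and are not compared by a test. The split also narrows the range of both genes among the 13. Relations of S100A8 or S100A9 over these 13 tumours therefore cannot decide whether they vary together, or with other measures.

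LTF encodes lactoferrin, the iron-binding protein of specific granules. In normal ALP tumours the brighter probe set of LTF ran from 5.35 through a median of 5.72 to 6.10. In increased ALP tumours it ran from 5.51 through 6.52 to 9.46. The highest level was in increased ALP tumour 3, and the next was 7.21 in increased ALP tumour 6, followed by 7.05 in tumour 1. The groups overlapped, with 6 of 9 increased ALP tumours above the normal maximum.

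CAMP encodes cathelicidin, an antimicrobial peptide of the same granules. Its brighter probe set stayed between 6.58 and 6.89 in normal ALP tumours, with a median of 6.79. In increased ALP tumours it ran from 6.76 through 6.95 to 9.90, again with tumour 3 highest and a gap of 2.66 to the next, tumour 9 at 7.24. Outside tumour 3 the range of CAMP over 17 tumours was narrow, yet 6 of 9 increased ALP tumours lay above the normal maximum. The dimmer CAMP probe set gave the same picture, at 9.15 in tumour 3 against 6.62 in the next, tumour 4, and 5 of 9 lay above the normal maximum. The 2 CAMP probe sets correlated at r = 0.989 over 18 tumours and 0.847 without tumour 3.

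The 2 LTF probe sets differed more. The dimmer one ranged only from 5.59 to 6.25, was highest in increased ALP tumour 3 and lay below the filter on low signals. Its r with the brighter one was 0.686 over 18 tumours and 0.044 without tumour 3. Most of what is said of LTF therefore comes from the brighter probe set alone.

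CTSG encodes cathepsin G, a serine protease of azurophil granules that mast cells can also make. The gene identifier that the annotation gives for its probe set was not found in the RefSeq table, so the name is the annotation's. CTSG ran from 5.90 to 6.58 in normal ALP tumours, where number 3 stood just under the median at 5.99, and from 5.84 through 6.31 to 8.86 in increased ALP tumours. Increased ALP tumour 3 was highest and tumour 9 was next at 6.68, so the groups overlapped over nearly their whole range apart from 1 tumour.

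MPO encodes myeloperoxidase, which makes hypochlorous acid in the phagosome. Its levels were 5.89, 6.13 and 6.92 (lowest, median and highest) with normal ALP, and 5.64, 6.04 and 8.62 with increased ALP. Increased ALP tumour 3 was again highest, with tumour 6 next at 7.36 followed by normal ALP tumour 2 at 6.92. Both the lowest and the highest MPO levels of the study were thus in increased ALP tumours, with tumour 2 lowest.

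ELANE encodes neutrophil elastase, a serine protease of azurophil granules. It ran from 6.39 through 6.51 to 6.61 with normal ALP and from 6.38 through 6.62 to 7.79 with increased ALP. Increased ALP tumour 3 was highest and tumour 6 next at 7.01, and the deposited signals spanned 3.05-fold over the study. Its SD of 0.33 stood at the 43.3 percentile of all tested probe sets.

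Increased ALP tumour 3 was thus the highest of 18 tumours for each of the 5 granule genes, while it ranked below tumours 6 and 2 for S100A8 and was the lowest of the 5 high tumours for S100A9. Of all 25754 tested probe sets, 7.61% were highest in this tumour. In increased ALP tumours 1, 2 and 6 and normal ALP tumour 7, the other tumours with high S100A8 and S100A9, the mean deviation of the 5 granule genes from their study means was -0.0046, -0.10, 0.39 and -0.19. In tumour 3 it was 2.41. The genes differed in this respect. The 4 highest tumours for the brighter LTF probe set, with 9.46, 7.21, 7.05 and 6.66, were increased ALP tumours 3, 6, 1 and 2, all with high S100A8 and S100A9. The 4 highest for ELANE were the same tumours, at 7.79, 7.01, 6.66 and 6.68 in that order. Increased ALP tumour 4, without high calprotectin, followed closely for ELANE at 6.62. Normal ALP tumour 7, also high for S100A8 and S100A9, ranked only 8 for LTF at 6.07 and 12 for ELANE at 6.51. For CAMP, CTSG and MPO, tumours without high calprotectin lay among the 4 highest.

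**Figure D2:**
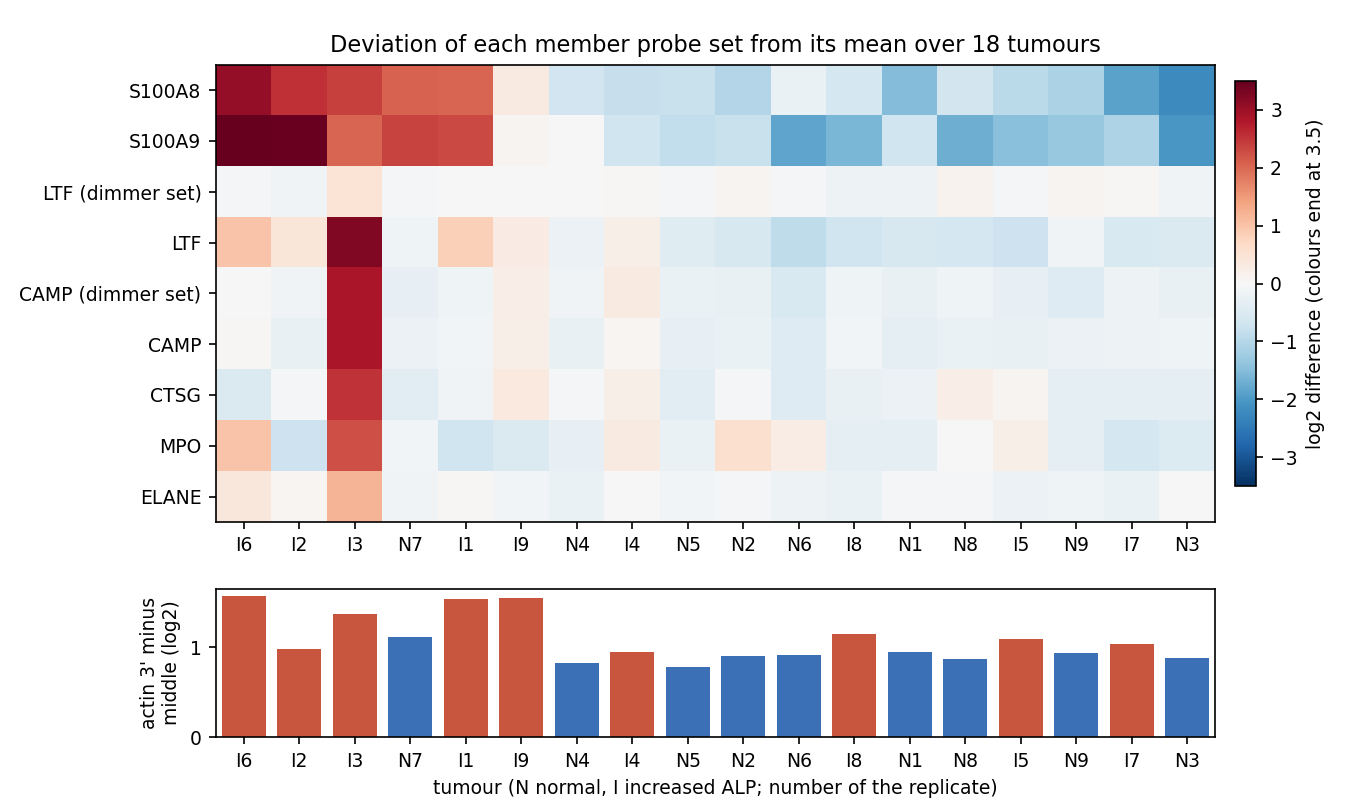
Deviation of each probe set from its own mean over 18 tumours (log2, colours end at 3.5), with tumours ordered by the mean deviation of S100A8 and S100A9, above bars for the actin 3' minus middle difference (log2; blue normal ALP, red increased ALP). The 5 tumours at the left are high for S100A8 and S100A9, and the granule genes stand out in the column of increased ALP tumour 3.

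The relations between the granule genes over 18 tumours rested to a large part on this tumour. Of the 10 pairs, 5 passed by Pearson's r and 2 by Spearman's rho, adjusted over 20 relations. The share of pairs of other genes that would pass is not given here. These counts therefore describe the 10 pairs and are not a trait particular to granule genes. The pair LTF and ELANE had r = 0.932 (permutation p = 1e-05, the smallest that 100000 permutations give, adjusted p = 2e-04) and rho = 0.649 (permutation p = 0.00422, adjusted p = 0.0396), and r = 0.632 without increased ALP tumours 3 and 6. The pair LTF and CAMP had r = 0.887 (permutation p = 0.00028, adjusted p = 0.0028) and rho = 0.631 (permutation p = 0.00594, adjusted p = 0.0396), and r = 0.557 without the same 2 tumours. Without tumour 3 alone, these were the 2 pairs that still passed, at r = 0.758 and 0.630 (adjusted p = 0.0064 and 0.0340 by permutation).

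Within the ALP groups the pair LTF and CAMP gave r = 0.618 in normal ALP tumours (exact permutation p = 0.0718) and 0.881 in increased ALP tumours (exact permutation p = 0.0146). For LTF and ELANE the values were -0.221 (exact permutation p = 0.564) and 0.972 (exact permutation p = 0.00011). The increased ALP values of both pairs include tumour 3, the highest for LTF, CAMP and ELANE, and are not given without it. Whether the groups differ in these relations was not tested. The other 3 pairs that passed by Pearson's r were CAMP with CTSG (0.937), CAMP with ELANE (0.912) and MPO with ELANE (0.802), each with an adjusted p of 0.0178 by permutation. Their rho values were 0.294, 0.404 and 0.174, with adjusted p of 0.589, 0.389 and 0.883 by permutation. Leaving out the 2 tumours farthest from the median brought their r to 0.113, 0.553 and -0.204, and without tumour 3 alone none of the 3 passed (CAMP with ELANE r = 0.431, adjusted p = 0.294 by permutation). In normal ALP tumours r was 0.229, 0.466 and -0.141 for the same pairs (exact permutation p = 0.538, 0.207 and 0.725).

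Between calprotectin and granule genes, the 10 pairs over the 13 tumours without high calprotectin had r between -0.138 and 0.684, and 0 passed by Pearson's r or Spearman's rho. The closest was S100A9 with LTF (r = 0.684, permutation p = 0.0098, adjusted p = 0.147; rho = 0.659, permutation p = 0.0173, adjusted p = 0.259). Its r was 0.496 without the 2 tumours farthest from the median of S100A9. Because the 13 tumours were set apart by these same S100 genes, the count of 0 does not decide whether the genes are related.

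**Figure D3:**
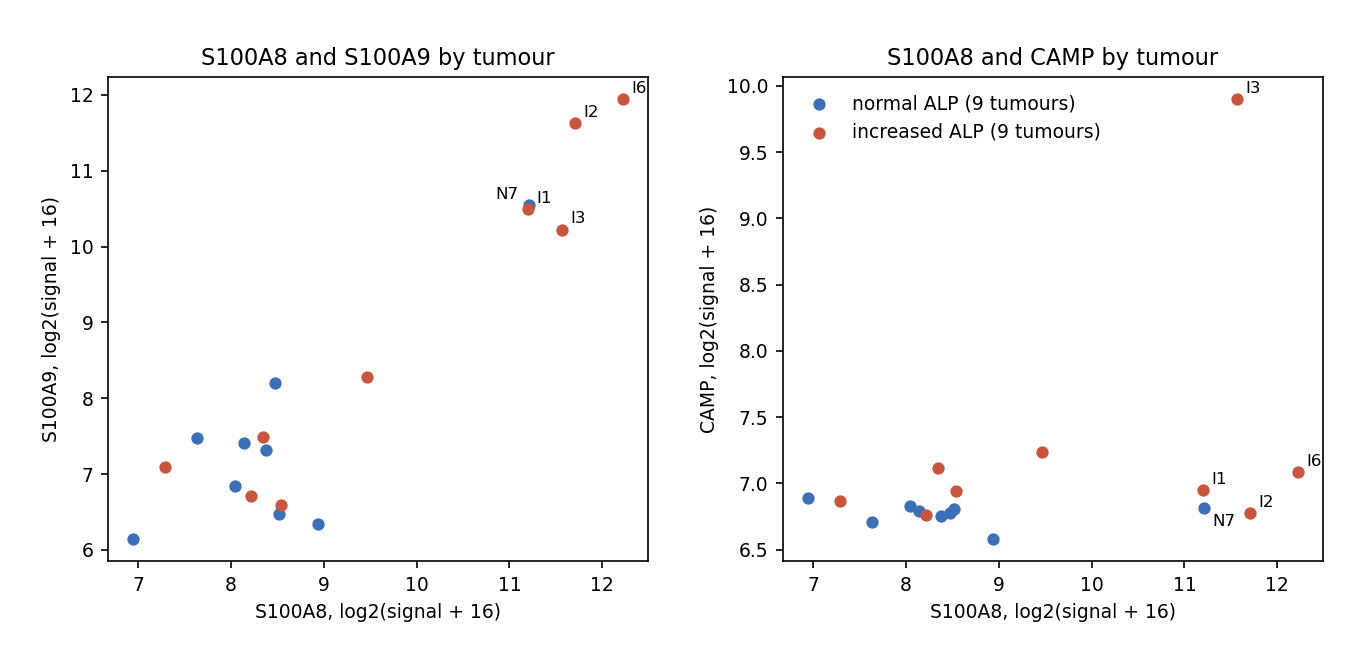
Levels in each tumour (log2 of signal + 16) of S100A8 against S100A9, left, and of S100A8 against CAMP, right, with blue points for normal ALP and red for increased ALP. The 5 labelled tumours are high for both S100 genes, and CAMP is high in increased ALP tumour 3 (I3) alone of them.

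The study's comparison is that of the serum ALP groups, tested per probe set with limma and Benjamini-Hochberg adjustment over all 25754 tested probe sets. At an adjusted p of 0.05, 0 of 25754 passed (0%), and no member passed. At an unadjusted p under 0.05 stood 6.14%, and 1.92% were at this level and higher with increased ALP, as was LTF alone of the members. All 9 member probe sets had a difference above 0, that is, higher with increased ALP, as had 51.5% of those tested. Of the 9, 8 passed the filter on low signals, and 3 of these 8 had a normal ALP mean under the filter's level of 6.15, so they passed only through the increased ALP tumours. Without increased ALP tumour 3, 2 of them, the brighter LTF and the dimmer CAMP probe set, would have had means of 6.04 and 6.13, under that level. The members' count is therefore a description.

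S100A8 averaged 8.48 ± 1.18 (SD) in the 9 normal ALP tumours and 9.84 ± 1.84 (SD) in the 9 increased ALP tumours. The groups differed by 1.36 ± 0.68 (SE; 95% interval -0.05 to 2.78), with limma's adjusted p = 0.819 and an exact two-sided permutation p = 0.0800, and 6 of 9 increased ALP tumours lay above the normal mean. S100A9 averaged 7.42 ± 1.34 and 8.94 ± 2.14, a difference of 1.52 ± 0.78 (SE; 95% interval -0.11 to 3.16; limma's adjusted p = 0.832, exact permutation p = 0.0892). For both subunits the highest normal ALP tumour, number 7, lay among the high increased ALP tumours, and the group ranges overlapped over most of their length. Without increased ALP tumours 3 and 6 the differences were 0.78 for S100A8 and 0.91 for S100A9.

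LTF averaged 5.78 ± 0.24 (SD, n = 9) with normal ALP and 6.67 ± 1.22 with increased ALP, a difference of 0.89 ± 0.38 (SE; 95% interval 0.09 to 1.70). The unadjusted limma p was 0.0317 and the adjusted p was 0.770. The exact permutation p was 0.0204, and without increased ALP tumour 3 the difference was 0.55 (exact permutation p = 0.0390). Without tumours 3 and 6 it was 0.42. This probe set is one of those that passed the filter only through the increased ALP tumours, so its limma p is no support for a difference. Its exact permutation p values are not adjusted for the number of probe sets tested and are no support either. The dimmer LTF probe set differed by 0.03 ± 0.07 (SE; exact permutation p = 0.744), so the 2 probe sets of this gene did not show the same difference.

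CAMP averaged 6.77 ± 0.09 (SD, n = 9) and 7.29 ± 0.99, a difference of 0.52 ± 0.31 (SE; 95% interval -0.13 to 1.17; limma's adjusted p = 0.849). Taken alone, its exact permutation p was 0.00399, and 8 of 9 increased ALP tumours lay above the normal mean. Without tumour 3 the difference was 0.19 (exact permutation p = 0.00679), above the SD of 0.09 among normal ALP tumours, and without tumours 3 and 6 it was 0.18. The dimmer CAMP probe set gave 0.57 ± 0.31 (SE), with an exact permutation p of 0.00391, and 0.24 without tumour 3 (exact permutation p = 0.00629). It too passed the filter only through the increased ALP tumours, and it measures the same gene, so it is not a second result. With the actin 3' minus middle difference in limma's fit, the brighter and dimmer probe sets differed by 0.22 and 0.36. The exact values of both are for single probe sets and are not adjusted for the number tested. The share of all probe sets that reach such values is not given here, so they are no support for a difference.

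For the azurophil enzymes the differences were smaller. CTSG differed by 0.44 ± 0.29 (SE; 95% interval -0.17 to 1.04; limma's adjusted p = 0.854, exact permutation p = 0.121), by 0.15 without tumour 3 and by 0.21 without tumours 3 and 6. Its normal ALP mean was 6.12, so it too passed the filter only through the increased ALP tumours. MPO differed by 0.21 ± 0.32 (SE; 95% interval -0.47 to 0.89; limma's adjusted p = 0.934, exact permutation p = 0.609), by -0.06 without tumour 3 and by -0.23 without tumours 3 and 6, with only 4 of 9 increased ALP tumours above the normal mean. ELANE differed by 0.21 ± 0.15 (SE; 95% interval -0.10 to 0.51; limma's adjusted p = 0.854, exact permutation p = 0.186), by 0.08 without tumour 3 and by 0.01 without tumours 3 and 6.

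The differences of the S100 genes were larger than those of the granule genes in all 10 pairs, by 0.47 (S100A8 against LTF) to 1.32 (S100A9 against MPO), but none of these excesses passed. Exact permutation p ran from 0.101 to 0.417, and from 0.315 to 0.417 after adjustment over the 10 pairs. A difference between the S100 and the granule genes in their relation to serum ALP was thus not shown.

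The actin difference moved with the ALP groups, with a correlation of 0.681 between the 2. The 5 tumours with high S100A8 and S100A9 had actin differences of 1.57 (increased ALP tumour 6), 1.53 (tumour 1), 1.37 (tumour 3), 0.98 (tumour 2) and 1.11 (normal ALP tumour 7, the highest of its group). Increased ALP tumour 9, at 1.55, had S100A8 at 9.47, the highest of the other 13. Increased ALP tumours 8, 5 and 7 had actin differences of 1.15, 1.09 and 1.03 and S100A9 levels of 6.59, 6.71 and 7.10. Whether RNA quality bears on the high S100A8 and S100A9 levels was not tested. With the actin difference as a term in limma's fit, the ALP difference of S100A8 went from 1.36 to -0.16 and that of S100A9 from 1.52 to -0.0037. That of LTF went to 0.22, CAMP to 0.22, CTSG to 0.34, MPO to -0.07 and ELANE to 0.01. The median over all tested probe sets was 0.0066 without the term and 0.0067 with it. With the GAPDH difference as the term instead, S100A8 kept 1.19, S100A9 1.34, LTF 0.72 and CAMP 0.40.

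**Figure D4:**
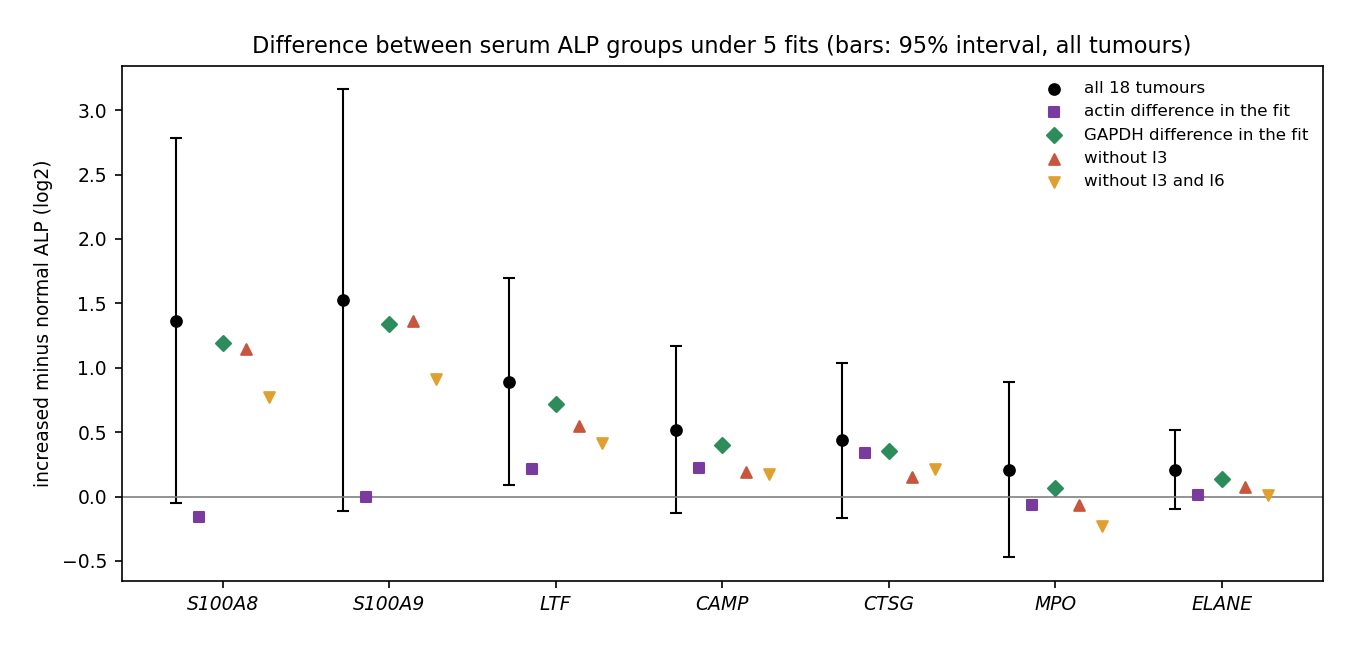
Difference between increased and normal ALP tumours (log2, vertical axis) for each gene under 5 fits, with bars for the 95% interval of the fit on all 18 tumours (I3 and I6 are increased ALP tumours 3 and 6). Once the actin term is fitted, S100A8 stands at -0.16 and S100A9 at -0.0037, and without tumour 3 MPO stands at -0.06.

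Across tumours, LTF followed the actin difference over all 18 (r = 0.605, permutation p = 0.00772, adjusted p = 0.0257 over 20 relations; rho = 0.484, permutation p = 0.0436, adjusted p = 0.218; r = 0.625 without the 2 tumours farthest from the median). The call was lost without increased ALP tumour 1 (r = 0.583, adjusted p = 0.0514 by permutation), without tumour 6 (r = 0.570, adjusted p = 0.0642) and without tumours 3 and 6 (r = 0.580, adjusted p = 0.102). Within groups its r was 0.273 with normal ALP and 0.455 with increased ALP (exact permutation p = 0.487 and 0.218). CAMP did so by rank (rho = 0.628, permutation p = 0.00582, adjusted p = 0.0396; r = 0.414, permutation p = 0.126, adjusted p = 0.155; r = 0.510 without the 2 farthest), with r = 0.061 and 0.257 within the groups (exact permutation p = 0.852 and 0.686). For CTSG, MPO and ELANE r was 0.285, 0.254 and 0.461, with adjusted p of 0.267, 0.313 and 0.0768 by permutation, and none passed. Over the 13 tumours without high calprotectin, S100A8 had r = 0.459 with the actin difference (permutation p = 0.129, adjusted p = 0.471; rho = 0.121, permutation p = 0.698, adjusted p = 0.951), and r = -0.262 without increased ALP tumours 8 and 9. How much of the ALP differences of these genes goes with RNA quality and how much with serum ALP cannot be told apart here.

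Other neutrophil genes were read from a list of 31, of which 21 had a probe set and 12 passed the filter. None of the 12 passed the ALP comparison, 9 were higher and 3 lower, and their median difference was 0.17 against 0.0066 over all tested probe sets. The 3 with the smallest p were ANXA1, an anti-inflammatory phospholipid-binding protein (-0.32 ± 0.21, SE), BPI, which kills Gram-negative bacteria (0.49 ± 0.39), and TREM1, an activating receptor of myeloid cells (0.45 ± 0.37). Further genes of the list were read by tumour. CSF3R, the receptor for granulocyte colony-stimulating factor, ranged from 6.04 to 8.39 and was highest in increased ALP tumour 2. In increased ALP tumour 3 it stood at 6.23, the eleventh level of 18, and MMP8, the neutrophil collagenase, had a mean under the filter, with levels between 4.65 and 5.15.

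Over all 12 genes, the mean deviation in tumour 3 was 0.06, which ranked 7 of 18, within a range of -0.91 to 0.64 in normal ALP tumours and -0.79 to 0.65 in increased ALP tumours. Of the 21 neutrophil genes with any probe set, 2 were highest in tumour 3: GFI1, a repressor needed for granulocyte development, at 7.63 against 7.11 in the next tumour, and OLFM4, a specific granule protein, at 5.39 and under the filter. PGLYRP1, a granule protein that binds bacterial walls, ranked 2 of 18 there, at 7.05, and MMP8, PADI4, CEBPE and ITGAM each ranked 3, while LCN2, a specific granule protein like LTF, ranked 15 at 5.19. Of these, CEBPE alone passed the filter. Lower down in tumour 3 among genes past the filter, MMP9 and CYBA each ranked 11, ANXA1 15 and NCF4 17.

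Receptors of mature neutrophils were read against both sets of members. IL1R2, a decoy receptor for interleukin-1, was highest in increased ALP tumour 6 at 10.65 and correlated with the mean of S100A8 and S100A9 at 0.777 over 18 tumours, and at 0.18 with the granule mean. TREM1 gave 0.73 and 0.06, and CSF3R 0.65 and -0.03. These genes had the highest such r with S100A8 and S100A9 among the neutrophil genes past the filter. For the others it ran from -0.19 for ANXA1 to 0.50 for ITGB2, with -0.02 for MMP9, -0.0045 for CYBA and 0.05 for NCF4. With the granule mean the others ran from -0.30 for ANXA1 to 0.68 for GFI1. The correlations with S100A8 and S100A9 mainly measure the gap between the 2 sets of tumours. Over the 13 without high calprotectin they were 0.55 for IL1R2, -0.02 for TREM1 and -0.48 for CSF3R. They are descriptions, and the differences between them were not tested. In increased ALP tumour 3, IL1R2 was 7.09 and TREM1 6.82, close to their medians of 7.10 and 6.82.

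Markers of other cells that can carry these transcripts were read the same way. Of 15 monocyte and macrophage genes past the filter, 11 were higher and 4 lower with increased ALP, with a median difference of 0.05, and tumour 3 ranked 12 of 18. The smallest p values of this list belonged to LYZ, lysozyme (0.62 ± 0.31, SE), VCAN, which was lower (-0.90 ± 0.57), and FCER1G (0.33 ± 0.36). Of 4 mast cell and basophil genes, 1 was higher and 3 were lower. Their mean deviation was highest in normal ALP tumour 7, at 2.12, and stood at -0.21 in tumour 3, where CTSG was highest. Of the 3 marrow precursor and dividing cell genes, all 3 were higher, with a median of 0.35. Tumour 3 was highest for this list, at 0.68, with TOP2A, a topoisomerase of dividing cells, at 13.46 against 12.87 in the next tumour. CD34 and SPINK2, the rest of this list, were near their medians in tumour 3. They stood at 9.96 and 9.51 there, against medians of 9.91 and 9.24. Of 10 keratinocyte and epithelial genes, KRT18 alone passed the filter, and it was highest in tumour 3. The mean deviation of the osteoblast list was -0.95, -1.69, 0.47 and -0.26 in increased ALP tumours 1, 2, 3 and 6. It was -1.01 in normal ALP tumour 7. In tumours without high calprotectin it ran from -1.52 (normal ALP tumour 3) to 1.32 (increased ALP tumour 8). None of these genes passed the ALP comparison, and the part of any of these cells in the levels of the members was not tested.

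The signals that draw neutrophils into tissue were read from a list of 18, of which 8 passed the filter. With increased ALP, 6 were higher and 2 lower, with a median difference of 0.35 that went to -0.14 once the actin term was fitted. The smallest p values belonged to TNF (0.20 ± 0.09, SE), CSF3 (0.17 ± 0.10) and SELE (0.69 ± 0.63), and none passed. Their mean deviation was 1.98, 1.70 and 1.83 in increased ALP tumours 1, 2 and 6 and 1.17 in normal ALP tumour 7, followed by 1.01 in normal ALP tumour 4, where S100A8 was 8.48. In increased ALP tumour 3, the fifth tumour with high S100A8 and S100A9, it was -0.48, although CXCL8 of this list was at 10.24 there against a median of 8.29. Among the receptors and signalling genes downstream of calprotectin, 9 of 10 passed the filter, 6 were higher and 3 lower, and the median difference was 0.10. The smallest p values belonged to IRAK4, which was lower (-0.34 ± 0.20, SE), CD36 (0.49 ± 0.43) and TLR2 (0.23 ± 0.24), and none passed. AGER, which encodes RAGE, differed by 0.05 with levels between 6.31 and 6.64 in all tumours.

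**Figure D5:**
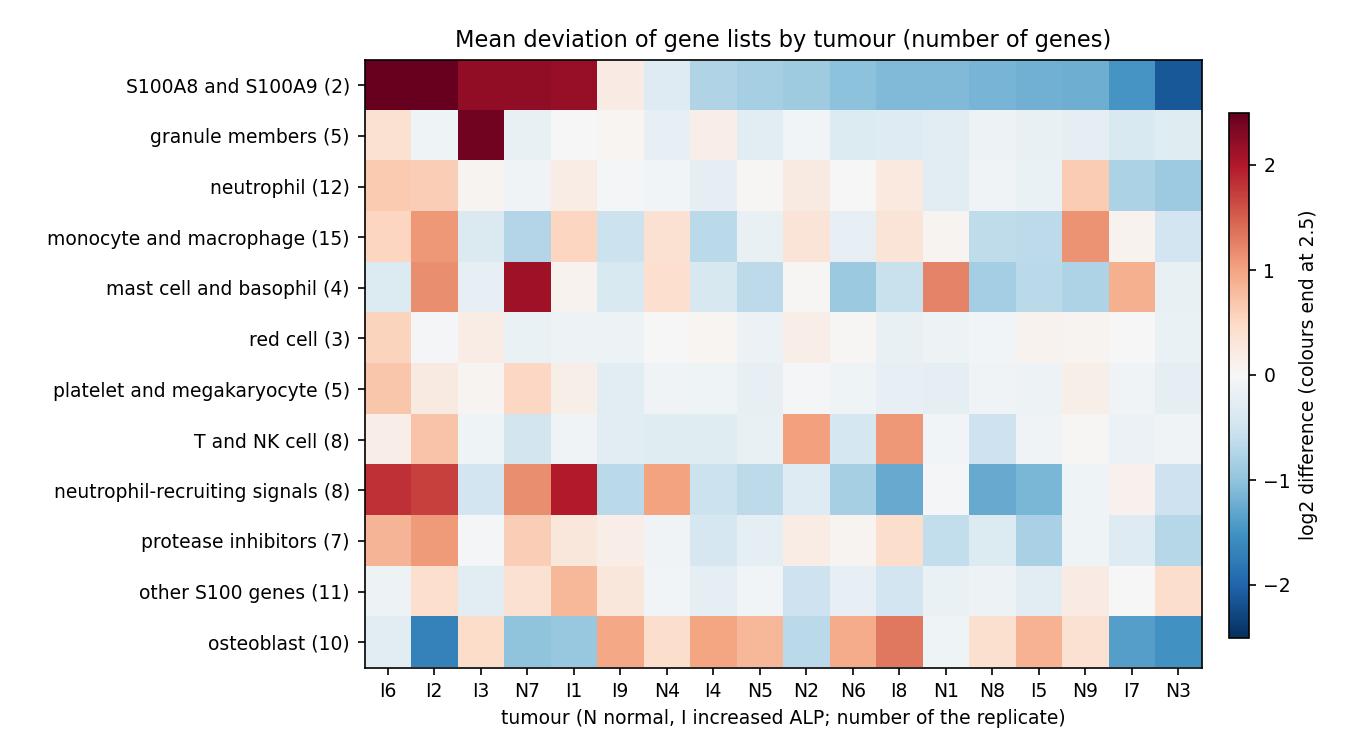
Mean deviation from the study mean (log2, colours end at 2.5) of the members and of 10 gene lists in each tumour, ordered by S100A8 and S100A9, with the number of genes past the filter in brackets. The neutrophil-recruiting signals are high in 4 of the 5 tumours at the left and at -0.48 in increased ALP tumour 3, where the granule members reach 2.41.

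The genes whose levels went most with the mean of S100A8 and S100A9 over 18 tumours were sought among 10710 genes with 1 symbol. CXCL8, the main neutrophil chemokine, came first with r = 0.857, followed by LOC483397 (0.839), LOC403585 (0.824), SLPI (0.822), DGAT2 (0.804), IL18BP (0.796), PPBP (0.780) and IL1R2 (0.777). The RefSeq table gives serum amyloid A as a name of LOC403585. SLPI is an inhibitor of neutrophil elastase, and PPBP is a platelet chemokine precursor. CXCL8 ran from 6.21 to 13.34, highest in increased ALP tumour 6. These values too mainly measure the gap between the 2 sets of tumours. Over the 13 tumours without high calprotectin the r of CXCL8 was 0.222, and that of all 8 genes lay between -0.323 and 0.553.

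The genes most like the mean of the 5 granule genes were AHCTF1 (r = 0.894), PRRC2C (0.890), MYO15B (0.889), AMN (0.887), EPO (0.867), LOC475113 (0.865), PPIL4 (0.858) and PLB1 (0.856). All 8 were highest in increased ALP tumour 3. Over the other 17 tumours, r lay between 0.0068 for MYO15B and 0.676 for PPIL4. None of these 8 genes is a member of the neutrophil list, and the 2 sets of most similar genes share no gene.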

How the data were processed

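Log2 signals of 43035 probe sets (111 controls) in 18 tumours were deposited by the authors. The submitters' processing notes name MAS5, while the normalization between arrays is not given in the sources used here. Detection calls were not used here, so a low level may be background. An offset of 16 was added on the linear scale before log2 was taken again. The filter on low signals dropped probe sets with a mean under the 40th percentile and kept 25754. Genes were named from the platform annotation, and probe sets ending in _s_at can share probes with related transcripts. The brighter probe set stood for a gene.

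ALP groups were compared with limma 3.58.1 in R 4.3.3 (lmFit, eBayes with trend; two-sided; Benjamini-Hochberg adjusted p under 0.05), and by exact permutation over 48620 splits for single probe sets, with SciPy 1.17.1 and NumPy 2.4.6. The labels do not say that tumours come from separate dogs, so p-values measure the spread between these samples. The members and the gene lists were chosen with earlier results of these data known. All members were named, with up to 3 genes of smallest p of each list and the 8 genes most similar to each mean; further list genes were chosen after their values were seen. Replicate numbers did not pair the tumours: same-numbered tumours correlated at -0.164 to 0.270, and 4 of 9 exceeded 0.1. These values are another measure than the correlations between arrays of 0.929 to 0.982, and cannot be set against them.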

Additional observations from a re-analysis of the deposited data

Results flagged for a closer look

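In each ALP group of 9 tumours, the highest and lowest were set against the rest, and a tumour stood apart where its gap to the nearest other exceeded Dixon's 95% critical share of the range. Chance does this in about 1 of 20 groups, and 9 of 22 groups did so here, though the members' groups are not independent of each other. Among normal ALP tumours, number 7 stood apart for S100A8 at 11.21 (the next at 8.93), for S100A9 at 10.54 (the next at 8.20) and for the actin 3' minus middle difference at 1.11 (the next at 0.95). Among increased ALP tumours, number 3 stood apart for the brighter LTF probe set at 9.46, the dimmer one at 6.25, the brighter CAMP probe set at 9.90, the dimmer one at 9.15, CTSG at 8.86 and ELANE at 7.79. MPO at 8.62 in the same tumour did not pass the rule.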

How the results depend on the processing

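The count of 0 called probe sets held in every setting that was run: offsets of 1, 64 and none, no filter or one at the 60th percentile, quantile and 75th percentile scaling, eBayes without trend or robust, array weights, the actin or GAPDH term, and leaving out tumours. The block on replicate number left the differences as they were (S100A8 1.36, S100A9 1.52) with 0 called. With the actin term, S100A8 went to -0.16, S100A9 to -0.0037 and MPO to -0.069. MPO was -0.062 without increased ALP tumour 3 and -0.23 without tumours 3 and 6. Leaving out each tumour in turn gave 1.07 (without increased ALP tumour 6) to 1.71 (without normal ALP tumour 7) for S100A8, 1.15 to 1.91 for S100A9, 0.55 to 1.04 for LTF, 0.19 to 0.59 and 0.24 to 0.64 for the CAMP probe sets, 0.15 to 0.53 for CTSG, -0.062 to 0.31 for MPO and 0.08 to 0.25 for ELANE. The actin difference between groups ran from 0.30 to 0.38 and that of GAPDH from 0.048 to 0.11. The granule pairs called (5) were 8 with 75th percentile scaling, 10 with the actin term, 0 without increased ALP tumours 3 and 6, and 2 to 8 over single tumours left out. Relations of granule genes with the actin difference (1) were 0 without both tumours, 0 with the dimmer probe sets of LTF and CAMP, and 0 to 2 over single tumours left out. The one called, LTF, was lost without increased ALP tumour 1 or 6. Without tumours 3 and 6, r turned to -0.481 for LTF with MPO, -0.228 for CAMP with MPO, -0.204 for MPO with ELANE and -0.387 for MPO with the actin difference. With single tumours left out, r ran from -0.104 (without tumour 3) to 0.826 for CTSG with MPO and from -0.107 (without tumour 3) to 0.924 for CTSG with ELANE. Over the 13 tumours it ran from -0.0578 to 0.542 for the actin difference with S100A8 and from -0.288 to 0.519 with S100A9, lowest without increased ALP tumour 9. Relations over 13 tumours were chosen after seeing the data. The causes were not tested. Signal over background limits LTF, CTSG, MPO and ELANE most, whose means lay between the 41.8 and 50.7 percentiles.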

Other observations

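Further gene groups were read beside the members, and no gene of them passed limma's ALP comparison. Of 7 inhibitors of proteases, 6 were higher and 1 lower with increased ALP, with a median difference of 0.14. PI3, an inhibitor of neutrophil elastase, differed by 1.02 ± 0.81 (SE) and SLPI by 0.55 ± 0.68. SLPI stood at 9.76 in increased ALP tumour 3 and was highest in normal ALP tumour 7, at 10.24. Of 11 other S100 genes, 5 were higher and 6 lower, with a median difference of -0.01. Of 6 transcription factors of myeloid cells, 3 were higher and 3 lower, with a median of -0.02. Of 8 T and NK cell genes, all 8 were higher, with a median of 0.24 and LCK at 0.34, and the list was highest in increased ALP tumour 8, where S100A8 was 8.53 and S100A9 6.59.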
